A study of Macaca mulatta with 5 samples.

Results

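In the fetal rhesus kidney, 3 clusters of cells carried the name of a cell cycle phase in place of a lineage, namely M-phase (c27), G2-M phase (c28) and G2-M phase (c29). Their members were taken by the cluster name that the study gave each cell, and they numbered 5810 of 36039 cells, or 16.1%, over 5 libraries. Of these, 1226 cells were named M-phase (c27), 1570 G2-M phase (c28) and 3014 G2-M phase (c29). All 5 libraries were 10x Genomics single-cell RNA libraries of cortically enriched kidney cells from rhesus macaque fetuses late in gestation, a time when nephrons are still being formed. In the 2 dissected libraries, 600 and 628, the cortex of 2 donor kidneys was cut out by hand and dissociated with enzymes active in the cold. The 3 vortexed libraries, 623, 627 and 632, came from tissue vortexed in a cold Bacillus licheniformis mix that favours cortical cells. No treatment is named in the labels, and the gestational age of each library is not given there, so age and preparation cannot be told apart. The libraries held between 2553 cells (library 632) and 10502 cells (library 627), and sequencing depth per cell is unknown. The phase-named cells are called dividing cells here after those names. The table names 11 further libraries, some of them human, that match no labelled sample. Those were not analysed here, so the species balance of the 3 clusters is not reported.

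G2 is the gap between the copying of the DNA and its division, and M is mitosis itself. Cells in these phases share a strong programme of spindle and chromosome genes, and a clustering of whole transcriptomes can group them by phase ahead of lineage. In the fetal kidney, the best known dividing cells are the nephron progenitors, which lie as a cap around the tips of the branching ureteric bud and renew themselves while giving rise to new nephrons. Stromal cells and the early epithelium of the forming nephron divide as well. The usual markers are MKI67, a protein of proliferating nuclei, TOP2A, which untangles DNA before division, and CCNB1, the cyclin that drives entry into mitosis. The deposited table held 0 columns of gene values, so the phase names could not be checked against these markers. None of the 37 cluster names refers to G1 or S phase.

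The share of dividing cells differed widely between libraries. The 3 clusters together made up 5.41% of library 600 (exact 95% binomial interval, 4.89 to 5.97), 13.7% of library 628 (12.9 to 14.6), 15.9% of library 623 (15.2 to 16.7), 27.4% of library 627 (26.6 to 28.3) and 5.01% of library 632 (4.20 to 5.93). Library 627 stood highest, libraries 623 and 628 lay between, and 600 and 632 were lowest with overlapping intervals. The mean was 13.5% ± 9.18 (SD, n = 5), and the highest and lowest libraries were 5.47-fold apart. Library 627 alone supplied 2880 of the 5810 cells. Intervals cover counting error only.

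Of the 3 clusters, M-phase (c27) varied least. It made up 1.97%, 3.67%, 3.05%, 4.88% and 1.84% of libraries 600, 628, 623, 627 and 632. The lowest and highest of these values were 2.65-fold apart, and the intervals of libraries 628 and 623, and of 600 and 632, overlapped. G2-M phase (c28) made up 1.55%, 4.11%, 4.54%, 6.96% and 1.06% of the same libraries, a range of 6.58-fold. Library 627 was again highest, and the lowest value rested on 27 cells of library 632. G2-M phase (c29) made up 1.89%, 5.93%, 8.35%, 15.6% and 2.12%, a range of 8.26-fold. For c29 the steps between 627, 623 and 628 each exceeded the counting intervals, and only 600 and 632 could not be ordered.

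**Figure D1:**
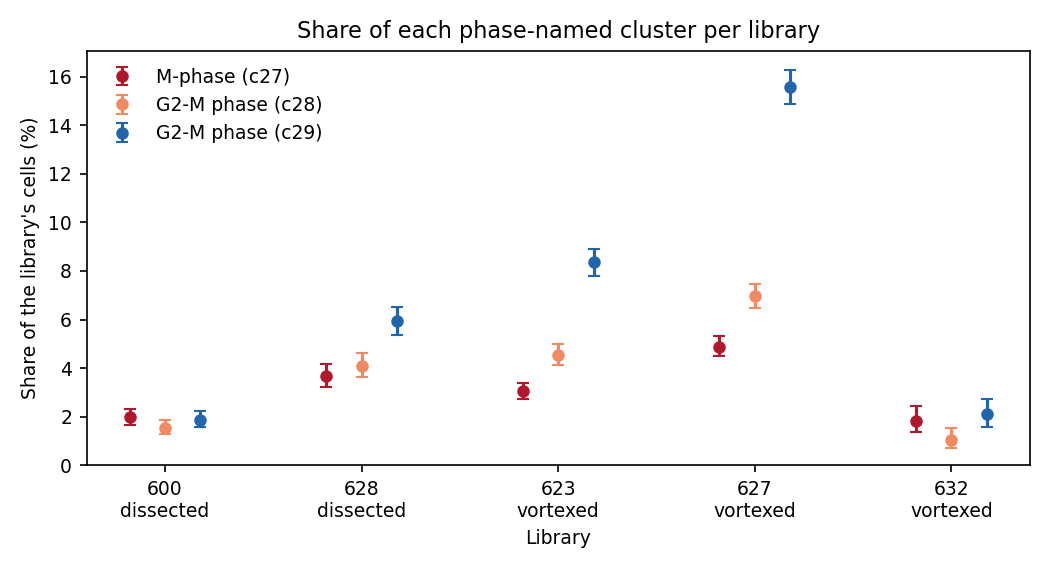
Share of each library's cells (%, vertical axis) named M-phase (c27), G2-M phase (c28) or G2-M phase (c29), for 2 dissected and 3 vortexed libraries. Points are single libraries and bars are exact 95% binomial intervals; G2-M phase (c29) reached 15.6% in library 627 and stayed at 1.89% and 2.12% in libraries 600 and 632.

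On the log2 odds scale, the SD over the 5 libraries was 1.39 for G2-M phase (c29), 1.17 for c28, the other G2-M cluster, and 0.61 for M-phase (c27) on the same scale. The median over all 37 clusters was 0.96, and the 3 clusters ranked 10, 15 and 29 from the most variable. All 3 had their highest shares in libraries 628, 623 and 627. Of the 34 clusters with other names, 3 showed the same split, namely NPC (c25), the cluster named for nephron progenitor cells, Fibroblast (c26) and Endothelial cell (c3). These 3 were picked out after their values were seen. The split itself was taken from the phase-named clusters, so their own match to it is no separate result. Whether 3 of 34 is more than chance gives was not tested.

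The mix of the 3 clusters also differed between libraries. M-phase (c27) made up 36.5% of the dividing cells of library 600 (exact 95% interval, 31.6 to 41.6), 26.8% of library 628 (23.8 to 29.8), 19.1% of library 623 (17.2 to 21.1), 17.8% of library 627 (16.4 to 19.3) and 36.7% of library 632 (28.4 to 45.7). This share was highest in the 2 libraries with the fewest dividing cells, 600 and 632, and lowest in 623 and 627, which had the most. G2-M phase (c29) took the opposite course, with 34.9%, 43.3%, 52.4%, 56.8% and 42.2% of the dividing cells. G2-M phase (c28) held a narrower range, from 21.1% in library 632 to 29.99% in library 628. Because the 3 parts make up all dividing cells and c28 changed less, c27 and c29 were largely bound to move in opposite ways. With 5 libraries, no correlation was computed between the mix and the total share, and both are parts of the same cell counts.

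**Figure D2:**
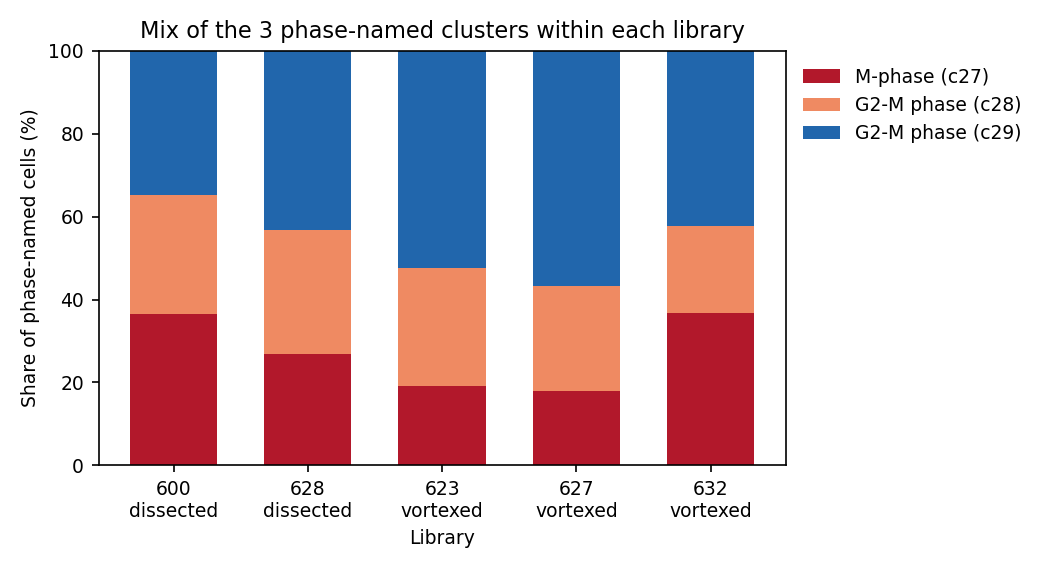
Percentage of the dividing cells of each library (vertical axis, stacked to 100%) that carried each of the 3 names. The M-phase (c27) part ranged between 17.8% in library 627 and 36.7% in library 632, and the G2-M phase (c29) part between 34.9% in library 600 and 56.8% in library 627.

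Within libraries, G2-M phase (c29) outnumbered G2-M phase (c28) in 5 of 5 libraries, by 1.22-fold, 1.44-fold, 1.84-fold, 2.24-fold and 2-fold in libraries 600, 628, 623, 627 and 632. On the log2 scale the ratio averaged 0.77 ± 0.36 (SD, n = 5). An exact two-sided test that flips the sign of each library's ratio gave p = 0.0625, its lowest possible value with 5 libraries, and p = 0.1875 after Benjamini-Hochberg adjustment for the 3 ratios. G2-M phase (c29) outnumbered M-phase (c27) in 4 of 5 libraries, with 0.956-fold in library 600 and 3.19-fold in library 627. Its mean log2 ratio was 0.79 ± 0.76 (exact sign-flip p = 0.125, adjusted p = 0.1875). G2-M phase (c28) exceeded M-phase (c27) in 3 of 5 libraries. Library 632 had 0.574 c28 cells per c27 cell and library 623 had 1.49. The mean log2 ratio of this pair was 0.02 ± 0.58 (exact sign-flip p = 1, adjusted p = 1) and changed sign without library 628, 623 or 627. No ratio passed an adjusted p of 0.05.

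Between preparations, the shares of dividing cells overlapped for each of the 3 clusters. The summed share was 9.55% ± 5.86 (SD, n = 2) in the dissected libraries and 16.1% ± 11.2 (n = 3) in the vortexed libraries. This difference of -6.57 percentage points was within the spread of the libraries (exact two-sided permutation test over 10 arrangements, p = 0.5, where 0.1 is the smallest possible). It shrank to -0.924 points without library 627 and to -2.43 without library 600, and reached -10.7 without library 628 and -12.1 without library 632. By cluster, limma on log2 odds gave -1.04 for G2-M phase (c29) (SE 1.04, 95% interval -3.46 to 1.38, limma adjusted p = 0.695), -0.38 for c28 (-2.66 to 1.90, limma adjusted p = 0.876) and -0.17 for M-phase (c27) (-1.89 to 1.55, limma adjusted p = 0.894). Negative values mean a lower share in dissected libraries. These intervals include differences of several fold in both directions. Across all 37 clusters, limma called 0 (0%) at an adjusted p of 0.05 and 5 (13.5%) at an unadjusted p of 0.05. None of the 5 was named by phase, and all 5 were higher in dissected libraries. The dissected and vortexed shares did not overlap in 11 of 37 clusters (29.7%). In 0 of the 37 did they lie apart with dissected lower, the direction of the 3 phase-named estimates. The 3 phase-named clusters were not among the 11, but 3 clusters are too few to set against that share.

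The ratio of the 2 G2-M clusters did differ without overlap between preparations. The dissected libraries had 1.22 and 1.44 c29 cells per c28 cell, and the vortexed libraries had 1.84, 2.24 and 2. The mean log2 ratio was 0.40 ± 0.17 (n = 2) against 1.01 ± 0.14 (n = 3), or 1.52-fold higher in vortexed libraries (exact two-sided permutation test, p = 0.1, the smallest possible; adjusted p = 0.3 over 3 ratios). This comparison was chosen after the ratios had been seen. Among all 666 ratios of 2 clusters, 185 (27.8%) likewise showed no overlap, so such a separation was common in these libraries. With M-phase (c27) as the denominator, the values overlapped for both G2-M clusters, with differences of -0.80 for c29 (p = 0.3) and -0.19 for c28 (p = 0.8) by the same exact permutation test. The latter turned positive without library 600, 623 or 627. The difference for c29 was -0.42 without library 600, -0.51 without 627, -1.17 without 628 and -1.25 without 632.

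The dividing share was set beside that of the nephron progenitors of each library. The share of NPC (c25) was 0.760% in library 600, 13.4% in library 628, 24.8% in library 623, 8.82% in library 627 and 1.18% in library 632. Libraries 600 and 632 were thus lowest in both NPC (c25) and dividing cells, but library 623 had the most NPC (c25) cells and library 627 the most dividing cells. Cap mesenchyme (c30), named for the condensed progenitors around the bud tip, made up 2.02%, 4.72%, 2.32%, 4.30% and 4.62% of the libraries in the same order. It followed another order: library 632, with the lowest dividing share, had nearly the highest share of Cap mesenchyme (c30). All shares come from the same totals, so a rise in one lowers the others.

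**Figure D3:**
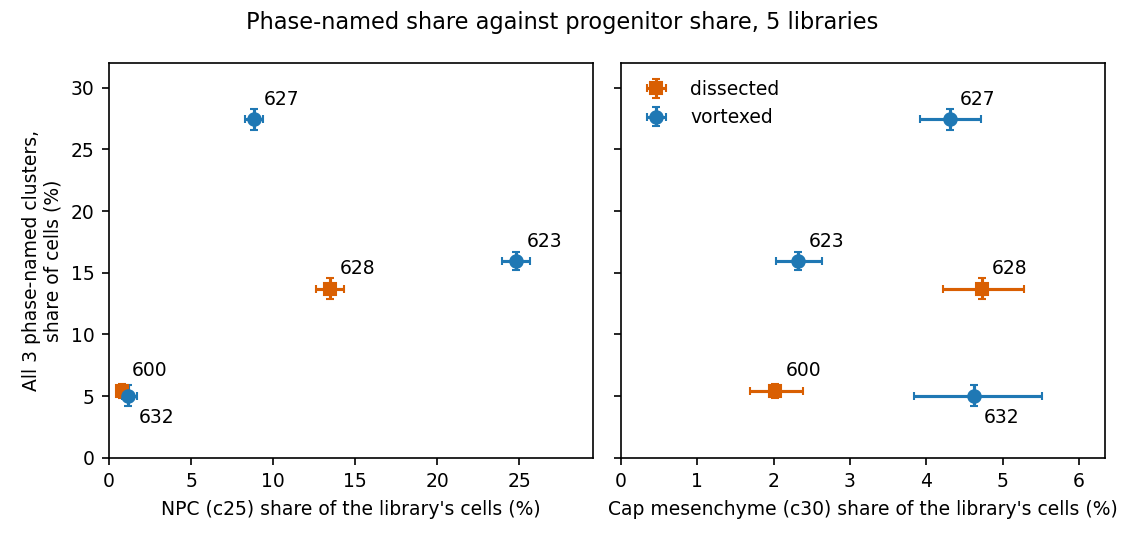
Share of cells in the 3 phase-named clusters (%, vertical axis) against the share of NPC (c25) (left) and of Cap mesenchyme (c30) (right), 1 point per library with exact 95% binomial intervals. Libraries 600 and 632 lie lowest on the vertical axis, at 5.41% and 5.01%, although their Cap mesenchyme (c30) shares are 2.02% and 4.62%.

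Counted per progenitor of either name, there were 1.95 dividing cells in library 600, 0.754 in library 628, 0.588 in library 623, 2.09 in library 627 and 0.865 in library 632. Libraries 600 and 627 were high and the other 3 were below 1, so the 2 preparations were mixed. The mean log2 ratio was 0.28 in dissected and 0.03 in vortexed libraries, a difference of 0.25 (exact permutation p = 0.8). That difference became -0.44 without library 600 and -0.15 without library 623, and reached 0.93 without library 628. Per Cap mesenchyme (c30) cell alone there were 2.68, 2.90, 6.86, 6.37 and 1.08 dividing cells, and per NPC (c25) cell alone 7.12, 1.02, 0.643, 3.11 and 4.27. The preparation difference was -0.38 with c30 alone, 0.40 with c25 alone, and -0.72 when the early nephron clusters, named for cells that have begun to differentiate, were added to the denominator (exact permutation p = 1, 0.8 and 0.6). The sign of this comparison therefore changed both with the names counted in the denominator and with the library left out.

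Positions in the study's embedding, a two-dimensional layout with arbitrary units, were used to describe which names lay beside the dividing cells. Names and positions come from the same expression values, so no test was made. Among the 15 nearest cells of the same library, dividing cells were mostly surrounded by dividing cells. A phase name was carried by 78.4% ± 9.22 of the neighbours of M-phase (c27) cells, 68.5% ± 11.9 for c28 and 73.5% ± 9.28 for c29 (SD, n = 5). In each library this was at least 2.74 times the dividing share of that library. By raw percentage, G2-M phase (c28) had the fewest neighbours of its own name. Of its neighbours 29.8% ± 13.7 were c28 cells, against 46.2% ± 3.04 own-name neighbours for c27 and 50.4% ± 12.1 for c29, and 21.8% ± 3.71 were c29 cells. In library 632, where c28 had 27 cells, this own-name share was 11.4%. These percentages depend on cluster size: relative to the cluster's share of the library, c29 was lower than c28 in library 623 (7.53-fold against 10.8-fold) and in library 627 (3.67-fold against 4.91-fold).

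**Figure D4:**
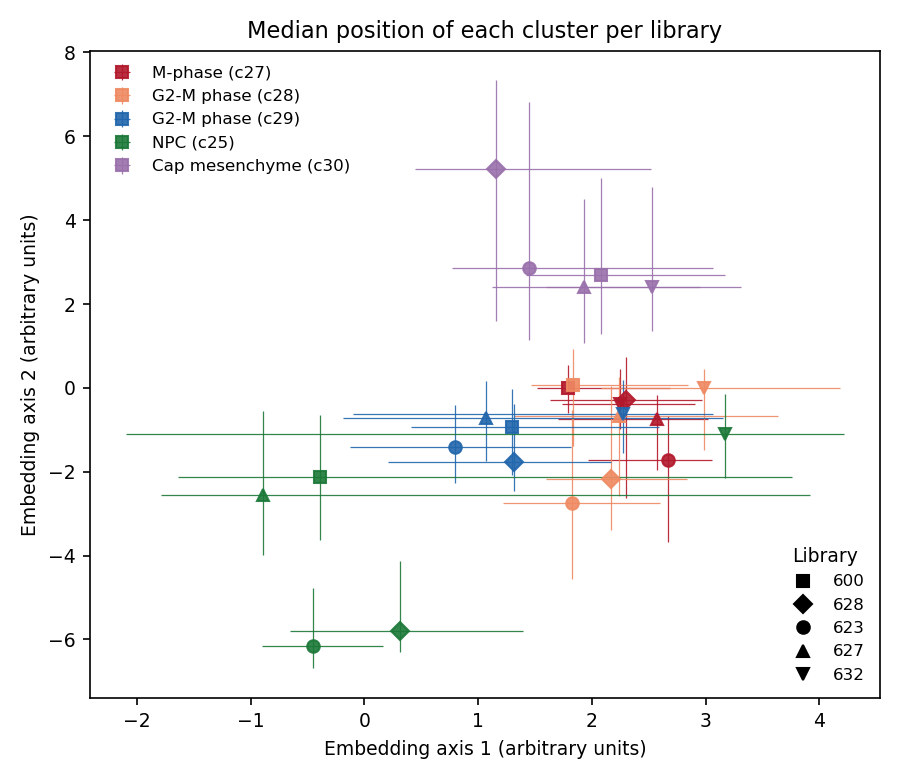
Median position of the 3 phase-named clusters, NPC (c25) and Cap mesenchyme (c30) on the 2 axes of the study's embedding (arbitrary units), 1 symbol per library with interquartile ranges as bars. On the second axis the dividing clusters lie between Cap mesenchyme (c30), with medians of 2.42 to 5.21, and NPC (c25), with medians of -6.16 to -1.11. They overlap NPC (c25) in part, and on the first axis this order does not hold in every library.

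The second axis of the embedding set the clusters in an order. Library medians of Cap mesenchyme (c30) lay between 2.42 and 5.21 on it. Those of M-phase (c27) lay between -1.72 and -0.0061, those of G2-M phase (c28) between -2.74 and 0.069, and those of G2-M phase (c29) between -1.77 and -0.63. The medians of NPC (c25) fell into 2 places, at -5.80 and -6.16 in libraries 628 and 623 and at -2.12, -2.56 and -1.11 in libraries 600, 627 and 632. The dividing cells were thus placed between the 2 progenitor names within each library on this axis, and each dividing cluster lay nearer to NPC (c25) in the latter 3 than in 628 and 623. On the first axis this order did not hold throughout. There the M-phase (c27) medians of 2.30, 2.67 and 2.58 in libraries 628, 623 and 627 lay above those of both progenitor names. In library 632 its median of 2.24 lay below both, and only in library 600, at 1.79, was it between them. On this axis NPC (c25) was widely spread within libraries 600, 627 and 632. Its quartiles there were -1.63 and 3.76, -1.79 and 3.92, and -2.09 and 4.21. The median of NPC (c25) therefore does not locate it well in those libraries.

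When cells with a phase name were set aside, the nearest cells differed between the 3 clusters. Cap mesenchyme (c30) made up 49.9%, 38.3%, 11.3%, 24.6% and 22.8% of the 15 nearest unphased cells of M-phase (c27) in libraries 600, 628, 623, 627 and 632. Beside G2-M phase (c29) it made up 18.9%, 8.94%, 10.8%, 12.05% and 14.3%, which was less than beside c27 in 5 of 5 libraries. G2-M phase (c28) had 28.99%, 14.6%, 12.5%, 17.3% and 18.8%, above c29 in each library and above c27 only in library 623. From the means over libraries, Cap mesenchyme (c30) was 6.95 times as frequent beside c27 as among all unphased cells, 4.36 times beside c28 and 3.07 times beside c29.

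NPC (c25) ran the other way in 4 of 5 libraries. It made up 28.8%, 44.7%, 52.8%, 45.2% and 24.7% of the neighbours of G2-M phase (c29), in the same order of libraries, against 9.58%, 30.4%, 56.7%, 40.1% and 15.7% beside M-phase (c27). Library 623, with the most NPC (c25) cells, was the exception. G2-M phase (c28) had 15.2%, 49.8%, 67.5%, 48.0% and 14.6%. Libraries 600 and 632 were lowest for all 3 clusters, and NPC (c25) itself was rare there. NPC (c25) was still above its share of all unphased cells in 5 of 5 libraries for each cluster, with the smallest excess at 1.79-fold, for c29 in library 623.

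**Figure D5:**
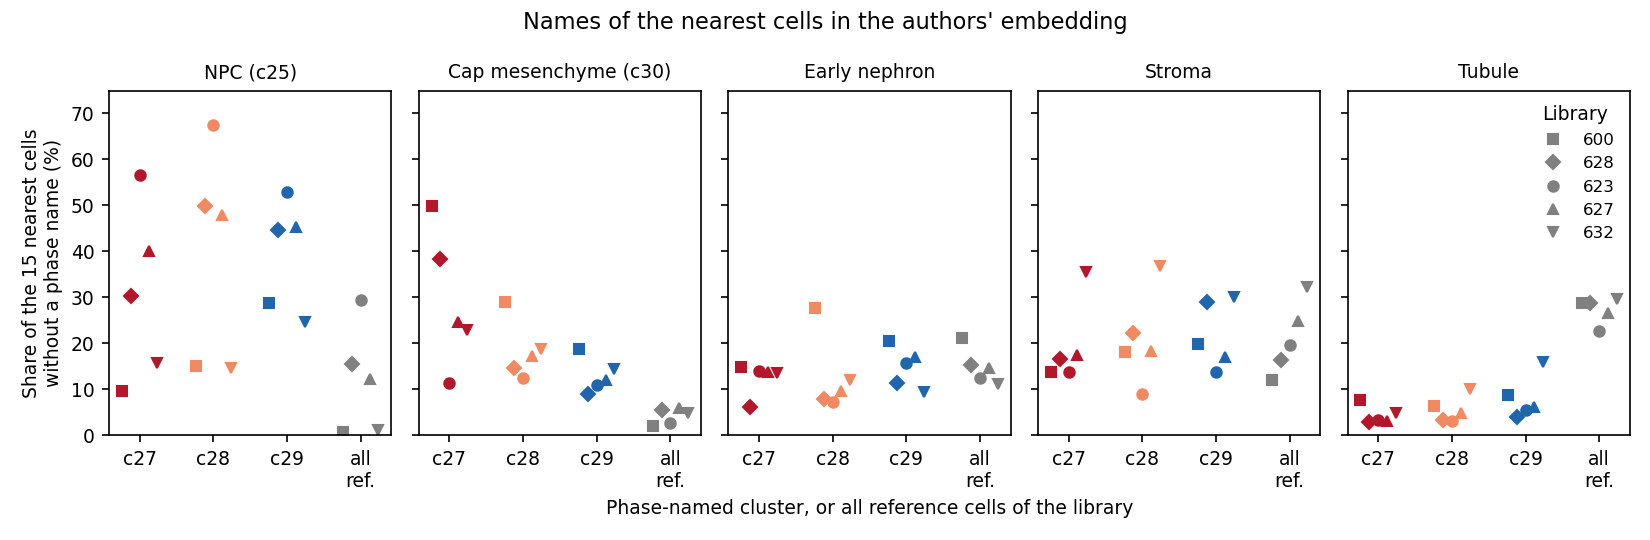
Share of the 15 nearest cells without a phase name (%, vertical axis) that belonged to 5 groups of names, for each dividing cluster (coloured) and for all unphased cells of the library (grey, all ref.); each symbol is 1 library. Cap mesenchyme (c30) was most frequent beside M-phase (c27), at up to 49.9% in library 600, and tubule stayed below its reference share for all 3 clusters.

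Of single clusters, NPC (c25) was the most frequent unphased neighbour of G2-M phase (c29) in 5 of 5 libraries. For the other 2 dividing clusters the first place went to NPC (c25) or Cap mesenchyme (c30), except for M-phase (c27) in library 632. There Interstitial Cell Lineages (c24), a cluster with a stromal name, came first at 23.0%, nearly level with Cap mesenchyme (c30) at 22.8%, on 47 cells. The share of Interstitial Cell Lineages (c24) was 10.7% ± 7.54 beside c27, 9.67% ± 5.34 beside c28 and 14.7% ± 6.35 beside c29, against 3.14% of all unphased cells. Stroma as a whole was near its reference on average, with 19.5%, 20.9% and 21.9% against 21.0%, but libraries differed. It was above its reference in 3, 3 and 2 of 5 libraries. The ratio to the reference ranged from 0.696 to 1.16 beside c27, from 0.453 to 1.52 beside c28 and from 0.686 to 1.77 beside c29. For c29 the libraries above it were the dissected ones, 600 (1.65-fold) and 628 (1.77-fold), which was not tested. Broad proximal diff (c17), a cluster of differentiating cells, made up 11.3% ± 3.84, 10.9% ± 6.34 and 13.7% ± 3.71, against 6.72%. The early nephron clusters together, to which c17 belongs, made up 12.5%, 12.9% and 14.8% against 14.96%, and were above their reference in 2 of 5 libraries for each dividing cluster. Tubule was below its reference share in 5 of 5 libraries beside each dividing cluster, with means of 4.38%, 5.55% and 8.12% against 27.3%. Podocytes, the filtering cells of the glomerulus, made up 0.0795%, 0.133% and 0.0782%, against 6.57%.

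Each dividing cell was then assigned the name, or group of names such as stroma, that was most frequent among its 15 unphased neighbours. NPC (c25) led for 22.7%, 49.8%, 63.9%, 47.1% and 21.9% of the dividing cells of libraries 600, 628, 623, 627 and 632. Cap mesenchyme (c30) led for 40.5%, 19.4%, 10.2%, 15.3% and 20.3%. Together the progenitor names led for the larger part of the dividing cells in 4 libraries but not in library 632. In library 632 they still led together for more cells than stroma did. There stroma led for 30.5% of the 128 dividing cells, against 11.9%, 15.8%, 4.79% and 15.5% in libraries 600, 628, 623 and 627. Stroma also made up 32.3% of all unphased cells of library 632, against 11.996%, 16.3%, 19.6% and 24.9% in those 4. The share of cells for which a name leads is another measure than its share of all cells. How far the 1 follows the other was not tested. By cluster, stroma led in library 632 for 42.6% of M-phase (c27), 29.6% of c28 and 20.4% of c29 cells. Early nephron names led for 15.9%, 8.42%, 11.9%, 13.1% and 1.56%, and tubule names for 1.08% to 10.2%. Podocytes led for 0 of the 5810 cells. Between 3.81% and 12.5% of cells had a tie.

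Seen from the other clusters, dividing neighbours were counted among the 15 nearest cells of any name. Of 26 clusters with at least 20 cells in 3 or more libraries, the 5 with the most dividing neighbours were NPC (c25) at 16.9% ± 10.2, Cap mesenchyme (c30) at 13.6% ± 4.50, Interstitial Cell Lineages (c24) at 10.4% ± 3.97, Interstitial cell lineages (c22) at 8.78% ± 5.27 and Fibroblast (c26) at 7.74% ± 2.83. NPC (c25) varied most, with 26.2%, 7.998%, 4.12%, 21.0% and 25.1% in libraries 600, 628, 623, 627 and 632. Cells of a cluster's own name count among the 15, so these values also depend on the size and packing of the cluster. Of the 26 clusters, 0 were above the dividing share of the library in every library with a value. NPC (c25) was above it in 2 of 5 libraries, at 4.83-fold in 600 and 5.01-fold in 632, and below it at 0.584-fold, 0.259-fold and 0.766-fold in 628, 623 and 627. Cap mesenchyme (c30) was above it in 3 of 5 libraries, Fibroblast (c26) in 2 of 5, Interstitial Cell Lineages (c24) in 1 of 5 and Interstitial cell lineages (c22) in 0 of 4. The low values of NPC (c25) in libraries 628 and 623 went with the median positions of NPC (c25) farthest from the dividing cells. NPC (c25) had 851 and 2434 cells there, against 52, 926 and 30 in libraries 600, 627 and 632. The part played by position and by cell number was not tested. Podocyte (c20) had 0.347% and Differentiated NPC (c14) 0.170% dividing neighbours, and 12 of the 26 clusters were below 1%.

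The median distance of dividing cells to the nearest unphased cell was set against the median distance of unphased cells to the nearest unphased cell of another name. This ratio was 1.98 ± 1.30 for M-phase (c27), 1.41 ± 1.01 for c28 and 1.86 ± 0.76 for c29, and above 1 in 4, 3 and 5 of 5 libraries. The 2 distances are not alike. From a dividing cell, the search passed over the other 2 dividing clusters as well as its own. Those 2 clusters held 32.2%, 38.7% and 23.0% of the nearest cells of any name for c27, c28 and c29. Passing over them lengthens the distance, so a ratio above 1 does not show that dividing cells lay apart.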

How the data were processed

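Fetal rhesus kidney cells were profiled in 10x Genomics 3' version 3 libraries, per the labels' protocols. The submitters' processing notes name Cell Ranger 6.0.1, Seurat and hg19, with no role. The sources used here do not give the cell filters, the handling of doublets, or how cells were integrated and clustered. The authors deposited 1 table with a row per cell, which holds a cluster name, library and species name, a barcode and 2 embedding positions, here treated as a score with arbitrary units, per the file headers; other deposited columns were categorical. Clustering included libraries not used here: 58227 rows of 11 library names that match no title were left out. Among the 5 libraries, 143 barcodes occurred in more than 1 library (1 to 28 per pair), and 42 phase-named cells (0.723%) carried one, against 0.794% of all cells.

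Cells were counted per cluster and library. Groups follow the library numbers in the extraction protocol. Separate animals are not stated for all libraries, so the p-values reflect the library-to-library spread alone, and part of it may be technical. Shares have exact (Clopper-Pearson) 95% intervals. Shares of all 37 clusters were fitted with limma 3.58.1 (R 4.3.3) on log2 odds with 0.5 cells added, for clusters of at least 10 cells, with Benjamini-Hochberg adjustment. The fit was also run on simulated data, and the outcome is not given here. Summed shares and ratios were compared by exact permutation over 10 arrangements or by sign flips over 32 patterns. Progenitors were NPC (c25) and Cap mesenchyme (c30); early nephron was both Differentiated NPC clusters and Broad proximal diff; other classes also followed the names. Neighbours were the 15 nearest cells of the same library. Clusters named beside the 3 phase-named ones were the progenitors, the first or second most frequent neighbours in any library and the 5 clusters with most phase-named neighbours. The members, classes and lists were chosen with earlier results of these data known.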

Additional observations from a re-analysis of the deposited data

Results flagged for a closer look

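Over the 5 libraries, 30 within-library values were screened for a single library far from the rest, and 3 stood out, where chance alone flags about 1 in 20. Early nephron names made up 27.8% of the unphased neighbours of G2-M phase (c28) in library 600, against 7.17% to 12.1% in the others. They made up 21.2% of all unphased cells there, against 11.2% to 15.4% elsewhere, so the ratio to that share was 1.31, and 1.08 in library 632. Early nephron names made up 6.24% of those of M-phase (c27) in library 628, against 13.6% to 14.9%, and 15.4% of all unphased cells of library 628, a ratio of 0.406. Beside M-phase (c27) in library 632, 35.6% of unphased neighbours had stromal names, against 13.7% to 17.5%, on 47 cells. Stroma made up 32.3% of all unphased cells of that library, a ratio of 1.10, against 1.16 in library 600 and 1.02 in library 628.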

How the results depend on the processing

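Of 247 recomputed values, 233 kept their direction and their side of the threshold, or moved by less than 1 SD between libraries. The other 14 changed sign, all of them values that had not passed a threshold. Much of this count was fixed in advance. The exact tests could not reach a p of 0.05 with so few libraries, so their side of the threshold could not change. Leaving out 1 library cannot move a mean over 5 libraries by 1 SD. The 60 such values beside the dividing clusters and the 25 beside other clusters were therefore bound to count as kept. The shares of M-phase (c27) and G2-M phase (c28) between preparations turned from -0.17 and -0.38 to 0.28 and 0.34 without library 600 and to 0.18 and 0.19 without library 627. With 1 library left out, the log2 odds ranged from -0.63 to 0.28 for c27, from -1.20 to 0.34 for c28 and from -1.89 to -0.18 for c29; where 1 dissected library remained, it was assumed to vary like the others. The within-library log2 ratio of c28 to c27 turned to -0.012, -0.12 and -0.099 without libraries 628, 623 and 627 (range -0.12 to 0.23), and its difference between preparations to 0.065, 0.047 and 0.015 without libraries 600, 623 and 627. Dividing cells per progenitor turned from 0.25 to -0.38 with Cap mesenchyme (c30) alone, -0.72 with early nephron added, -0.44 without library 600 and -0.15 without library 623, and reached 0.93 without library 628. The cause of these changes was not tested. The c29 to c28 difference between preparations ranged from -0.73 to -0.48 with 1 library left out. Limma called 0 clusters under each alternative, with 0 to 6 clusters at an unadjusted p of 0.05; the count of 0 came from the restricted denominator, where fewer clusters were fitted. The shares of NPC (c25), Cap mesenchyme (c30), early nephron and stroma beside the 3 clusters moved by at most 10.1 points with 5 or 50 neighbours, pooled libraries or libraries thinned to 2553 cells. The 5 clusters with most dividing neighbours were recomputed with 5 and 50 neighbours and with 1 library left out. Other neighbour shares were not recomputed. No paired analysis was possible because the libraries of the 2 preparations share no number. The 27 cells of c28 in library 632 limit every value that rests on them.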
